A study of Bos taurus with 6 samples.

Results

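Expression of 10 genes of the hypoxia response was measured in bovine cumulus cells, which enclose the oocyte in the follicle: the factors HIF1A, EPAS1 and ARNT, the oxygen sensors EGLN1 and EGLN3, and the target genes BNIP3, ADM, NDRG1, P4HA1 and DDIT4. They were taken by name, as all probes whose symbol in the array's annotation is one of the 10, and gave 16 of the 43794 gene probes and 10 of the 15216 gene symbols on the array. Holstein cows had 3 days of follicle-stimulating hormone (FSH), and the cumulus cells of both conditions were taken 68 h after FSH ended. The treated condition also had cetrorelix (12 mg per day for 5 days, starting on day 2 of FSH), which blocks the receptor for gonadotropin-releasing hormone and so lowers luteinizing hormone, while the control condition had FSH and its withdrawal alone. Cetrorelix is known as an antagonist, although the labels call it an agonist. The labels name 6 cows for the experiment without tying them to replicates, so that p-values of cetrorelix over control measure the spread between these samples. In bulk cells, fewer cells of a type and less RNA per cell cannot be told apart.

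Hypoxia-inducible factors are pairs of an oxygen-labile alpha subunit (HIF1A or EPAS1) and the stable partner ARNT. With oxygen present, the prolyl hydroxylases EGLN1 and EGLN3 mark the alpha subunit, which the VHL ubiquitin ligase then sends to degradation, so that much of the control of HIF1A acts on the protein and is not seen in its transcript. When oxygen falls, the pair binds DNA and raises genes of glucose use, mitophagy, matrix and blood vessels, and EGLN3 is itself such a target. Follicles hold no vessels inside the basement membrane, and hypoxia genes in their cells are also known to respond to gonadotropins.

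Each of 6 arrays held cetrorelix RNA in one dye and control RNA in the other, as 3 biological replicates with swapped dyes. All ratios are log2 of cetrorelix over control, the average over the 2 arrays of a replicate counts as 1 value, and errors are the SD over 3 replicates. The 3 arrays with cetrorelix in Cy5 lie on one slide and the 3 with cetrorelix in Cy3 on another, so an effect of the slide and one of the dye orientation cannot be told apart. On 2 arrays, replicate 3 with cetrorelix in Cy5 and replicate 1 with cetrorelix in Cy3, the background model (normexp) fitted negative background means in both channels (-210 and -91.7 for Cy5 and Cy3 on the first array, -354 and -267 on the second) against positive means between 10.1 and 105 on the other 4 arrays. Ratios on those 2 arrays were drawn towards 0, with a median absolute deviation over the tested probes of 0.19 and 0.08 against 0.48 to 0.53 on the other arrays, and without background correction all 6 arrays lay between 0.34 and 0.45. Values of single member probes without background correction, or from the other 4 arrays with a dye coefficient, are also given where they turn the direction or move the value by over 1.5 times. Of the 15 granulosa and cumulus marker genes, 11 were above background on every array in both conditions, with AMH, GATA4 and INHA among those measured. None of 11 endothelial marker genes was above background on every array in both conditions. Of the 32125 tested probes, 11881 were. The summed intensity of the 8 tested endothelial genes lay between 1880 and 1998 with cetrorelix and between 1745 and 2061 in control.

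None of the 15 tested member probes passed the test at an adjusted p under 0.05 (limma, Benjamini-Hochberg over 32125 probes), where 0.0125% of all probes passed. At an unadjusted p under 0.05, 3 of the 15 were counted, 2 higher and 1 lower with cetrorelix, against 11.1% of all tested probes (5.29% higher and 5.82% lower). That balance depended on the normalization: median centring without loess gave 1 higher and 5 lower, against 3.91% and 7.74% of all tested probes. Scale normalization gave 0 higher and 2 lower, where 7.58% of all tested probes reached that level in either direction. The 3 probes counted first were HIF1A probe EMBV3_29664, the BNIP3 probe and P4HA1 probe EMBV3_38515, and no other member probe was counted there. The plot of member ratios by array shows that the arrays of most members lie on both sides of 0. With each gene read from its brightest probe, the median log2 ratio of the 9 tested member genes was 0.13, with 0.14, -0.38 and 0.03 in replicates 1, 2 and 3, and that of all 12400 tested genes was -0.01.

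**Figure D1:**
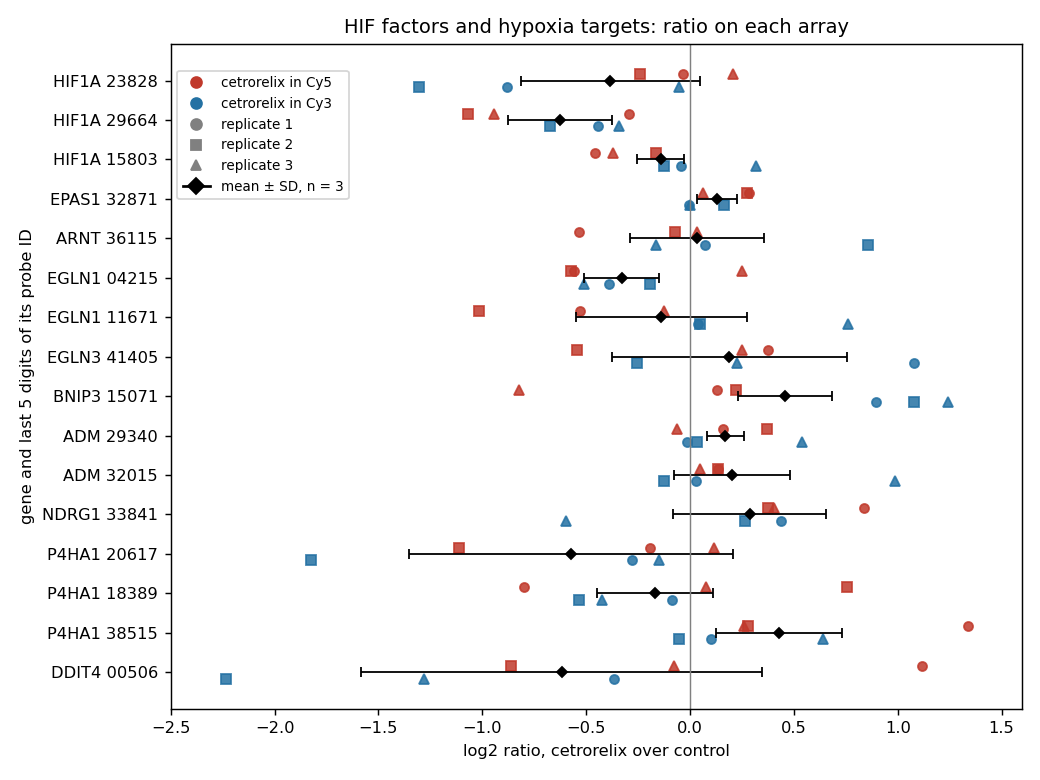
Log2 ratio of cetrorelix over control (x axis) for each of the 16 member probes (y axis, gene and last digits of the probe ID), with a point for each of 6 arrays, coloured by dye orientation and shaped by replicate. Black diamonds and bars are the mean and SD of 3 replicates, and HIF1A probe EMBV3_29664 is the tested probe whose 6 points all lie on one side of 0.

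HIF1A, the alpha subunit that is broadly expressed, was represented by 3 probes, all above background on 6 of 6 arrays in both conditions, and their mean ratios were all below 0. On probe EMBV3_29664 the log2 ratios with cetrorelix in Cy5 were -0.30, -1.07 and -0.94 in replicates 1, 2 and 3, and with cetrorelix in Cy3 they were -0.44, -0.67 and -0.34. Control levels on this probe were between 11.11 and 11.37 on the log2 intensity scale and cetrorelix levels between 10.04 and 10.92. The mean log2 ratio was -0.63 ± 0.25 (SD, n = 3), a 1.55-fold lower level with cetrorelix (95% interval of the log2 ratio -0.98 to -0.27). By its p it stood at rank 600 of 32125 tested probes (limma adjusted p = 0.176). It was the only member probe with the same sign on 6 of 6 arrays, which 7.25% of all tested probes had. It was below 0, as were 4.21% of all tested probes, and no member probe was above 0 on all 6, as 3.04% of them were.

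The call on EMBV3_29664 depended on the model. With the 6 arrays fitted without a replicate block and with the dye orientation as a coefficient, the limma adjusted p was 0.0283, where 3.41% of all tested probes passed. That fit counts the 2 arrays of a replicate as separate samples, although they are 1 replicate, so its p is not one of 3 replicates. With the replicate as a random block beside the same coefficient the limma adjusted p was 0.0502, where 2.39% passed. With another estimator of the background model, rma75, the mean log2 ratio was -0.42 and the limma adjusted p was 0.808.

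The brightest HIF1A probe, EMBV3_23828, gave log2 ratios of -0.03, -0.24 and 0.21 where cetrorelix was in Cy5 and of -0.88, -1.31 and -0.05 where it was in Cy3. Only replicates 1 and 2 of the second slide were far below 0. Over replicates it averaged -0.38 ± 0.43 (SD, n = 3; limma adjusted p = 0.508), with -0.19 without replicate 2 and -0.62 without replicate 3. The slide difference was 0.72 (limma adjusted p = 0.0505), and without background correction it was 0.64 (limma adjusted p = 0.0499). The third probe, EMBV3_15803, lay at -0.46, -0.17, -0.37, -0.05, -0.13 and 0.32 on the 6 arrays in the same order, below 0 on 5 of them. Its mean log2 ratio was -0.14 ± 0.11 (SD, n = 3; limma adjusted p = 0.851). The 3 probes thus share the sign of their means and differ in size from -0.14 to -0.63.

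**Figure D2:**
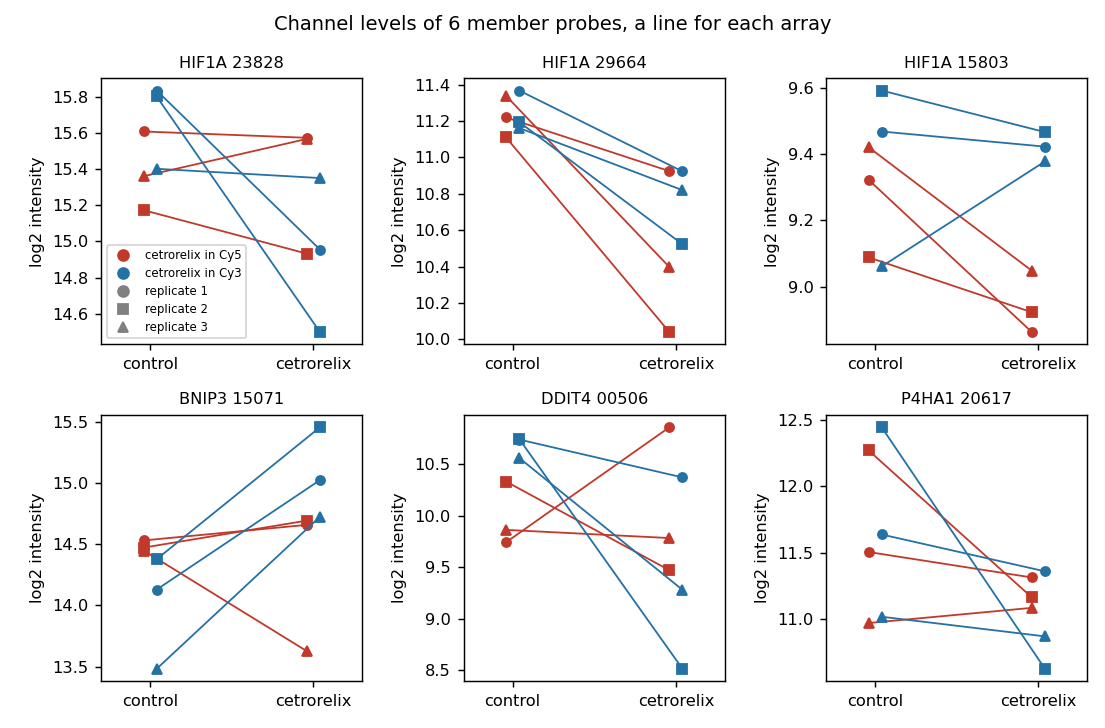
Normalized log2 intensity (y axis) in the control and the cetrorelix channel (x axis) for 3 HIF1A probes and for BNIP3, DDIT4 and P4HA1, a line for each of the 6 arrays. All 6 lines of HIF1A EMBV3_29664 go down, whereas the blue BNIP3 lines (cetrorelix in Cy3) go up and the red ones (cetrorelix in Cy5) go up on 2 arrays and down on 1; y axes differ between panels.

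The other alpha subunit and the shared partner were dim. EPAS1, the alpha subunit that is prominent in endothelium, was above background on 3 arrays in each condition. Its log2 ratios were 0.28, 0.28 and 0.06 with cetrorelix in Cy5 and -0.01, 0.16 and 0.00 with cetrorelix in Cy3. The mean of 0.13 ± 0.10 (SD, n = 3) did not pass the test (limma adjusted p = 0.867), and the 95% interval of the log2 ratio started at -0.20. ARNT was above background on 2 arrays in the cetrorelix channel and 1 in the control channel and was not tested. Its log2 ratios ran from -0.53 to 0.86 over the 6 arrays. Their mean was 0.03 ± 0.32 (SD, n = 3), and 0.15 without background correction, so that no difference was detectable at this signal.

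EGLN1, the main prolyl hydroxylase that marks HIF1A, was measured by 2 probes above background on every array. EMBV3_04215 gave log2 ratios of -0.56, -0.57 and 0.25 on the Cy5 slide and -0.39, -0.19 and -0.51 on the Cy3 slide, below 0 on 5 of 6 arrays. Its mean log2 ratio was -0.33 ± 0.18 (SD, n = 3; limma adjusted p = 0.471). The second probe, EMBV3_11671, was at -0.53, -1.02 and -0.13 on the Cy5 slide (cetrorelix in Cy5) and 0.04, 0.05 and 0.76 on the Cy3 slide. Its slide means took opposite signs, as did those of 51.9% of all tested probes. The average over replicates was -0.14 ± 0.41 (SD, n = 3; limma adjusted p = 0.901).

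EGLN3, the sensor that is also a hypoxia target, gave log2 ratios of 0.38, -0.54 and 0.25 with cetrorelix in Cy5 and 1.08, -0.25 and 0.22 with cetrorelix in Cy3. Replicate 2 was below 0 on both arrays, and the other replicates were above 0 on both. The mean log2 ratio of 0.19 ± 0.56 (SD, n = 3; limma adjusted p = 0.868) was smaller than its SD. It was -0.05 on the 4 arrays of positive fitted background with a dye coefficient and -0.04 with the rma75 estimator.

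BNIP3, a mitochondrial outer membrane protein that draws mitochondria into autophagy, was the member gene with the lowest p when each gene was read from its brightest probe. Its log2 ratios were 0.13, 0.22 and -0.82 on the Cy5 slide and 0.90, 1.08 and 1.24 on the Cy3 slide. Cetrorelix levels were above control on 5 of 6 arrays, and only replicate 3 of the first slide was lower. The mean log2 ratio was 0.46 ± 0.22 (SD, n = 3), a 1.37-fold higher level (limma adjusted p = 0.287). Within slides the mean was -0.16 with cetrorelix in Cy5 (limma adjusted p = 0.859) and 1.07 with cetrorelix in Cy3 (limma adjusted p = 0.0144), where 1.61% and 3.53% of all tested probes passed on the 2 slides. All arrays of a slide hold cetrorelix in the same dye, so a test within 1 slide cannot tell treatment from dye effects.

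The genes with a symbol whose 6 array ratios were most like those of BNIP3, by root mean square difference among 12399 genes, were PTGFRN (0.125), UBE2D4 (0.131) and MAGEB16 (0.134). Their 6 points share arrays, dyes and normalization with BNIP3, and choosing them by likeness on single arrays also gives them its difference between slides.

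ADM encodes adrenomedullin, a vasodilator peptide, and its 2 probes were near background. EMBV3_29340 gave log2 ratios of 0.16, 0.37 and -0.06 with cetrorelix in Cy5 and -0.02, 0.03 and 0.54 with cetrorelix in Cy3. Its mean log2 ratio was 0.17 ± 0.09 (SD, n = 3; limma adjusted p = 0.800), and it was 0.10 without background correction and 0.27 on the 4 other arrays with a dye coefficient. EMBV3_32015 ran from -0.13 to 0.99, with 1 array, replicate 3 with cetrorelix in Cy3, far above the others. The mean over replicates was 0.20 ± 0.28 (SD, n = 3; limma adjusted p = 0.782), with 0.04 without replicate 3.

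NDRG1, a stress-responsive cytoplasmic protein, had log2 ratios of 0.84, 0.37 and 0.40 with cetrorelix in Cy5 and 0.44, 0.26 and -0.60 with cetrorelix in Cy3. On 5 arrays it was above 0, and on the array of replicate 3 on the second slide it was below. The mean log2 ratio was 0.29 ± 0.37 (SD, n = 3; limma adjusted p = 0.656), with 0.11 without replicate 1 and 0.48 without replicate 3.

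P4HA1, a catalytic subunit of the enzyme that hydroxylates collagen prolines, had 3 probes that did not share a sign. The brightest, EMBV3_20617, gave log2 ratios of -0.19, -1.11 and 0.11 with cetrorelix in Cy5 and -0.28, -1.82 and -0.15 with cetrorelix in Cy3. Replicate 2 was the lowest on both slides, and the mean log2 ratio of -0.57 ± 0.78 (SD, n = 3; limma adjusted p = 0.470) was -0.13 without it. EMBV3_38515 gave 1.34, 0.28 and 0.26 and then 0.10, -0.05 and 0.64, above 0 on 5 of 6 arrays and, without background correction, on 6 of 6. This gave a mean log2 ratio of 0.43 ± 0.30 (SD, n = 3; limma adjusted p = 0.365). The probe was dim, with a mean log2 intensity of 8.22 beside 8.15 for ADM EMBV3_29340. Its ratio of 1.34 is from an array on which its control channel was not above background. EMBV3_18389 ran from -0.80 to 0.76 with a mean log2 ratio of -0.17 ± 0.28 (SD, n = 3; limma adjusted p = 0.832). No level of P4HA1 as a gene can be read from these 3 probes together.

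DDIT4, a stress-induced inhibitor of the growth kinase complex mTORC1, spread the most between replicates. Its log2 ratios were 1.12, -0.86 and -0.08 with cetrorelix in Cy5 and -0.37, -2.23 and -1.28 with cetrorelix in Cy3. Replicate 2 was far below 0 on both slides, while replicate 1 took opposite signs on its 2 arrays. The mean log2 ratio was -0.62 ± 0.96 (SD, n = 3; limma adjusted p = 0.520), with -1.11 without replicate 1 and -0.15 without replicate 2. Within slides the mean was 0.06 with cetrorelix in Cy5 (limma adjusted p = 0.962) and -1.30 with cetrorelix in Cy3 (limma adjusted p = 0.0485). As for BNIP3, a test within 1 slide cannot tell treatment from dye effects.

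The difference between the slides was tested within replicates. Its standard error was 0.263 for every tested member probe, so these p-values rest on a pooled spread and not on each probe's own. The difference passed the threshold for 3 of the 15 member probes, BNIP3, DDIT4 and EGLN1 probe EMBV3_11671, against 11.9% of all tested probes. The slide means took opposite signs for 5 of the 15 probes, against 51.9% of all tested probes. The plot of the 2 slide means shows BNIP3 and DDIT4 far from the line of equal slides and on opposite sides of it, and HIF1A probe EMBV3_29664 below 0 on both slides.

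**Figure D3:**
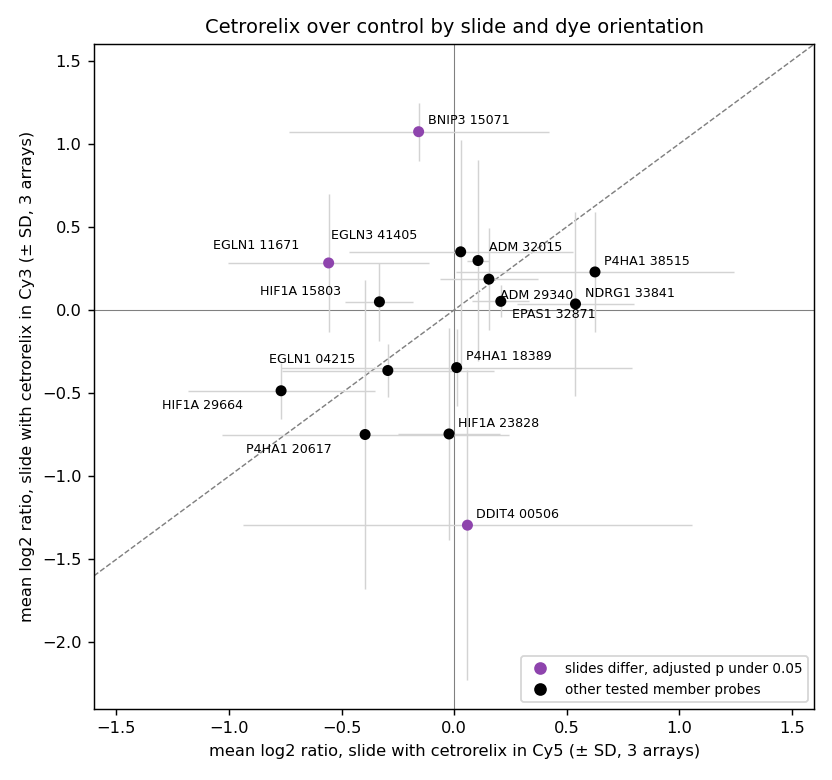
Mean log2 ratio of cetrorelix over control on the Cy5 slide (x axis) against the Cy3 slide (y axis), named for the dye of the cetrorelix RNA, for the 15 tested member probes, with the SD over 3 arrays as grey bars and equality as a dashed line. Purple points are BNIP3, DDIT4 and EGLN1 EMBV3_11671, whose slides differed at an adjusted p under 0.05.

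Genes around the members were read from 8 lists (128 genes, 109 of them tested). None passed at an adjusted p under 0.05, where 0.00806% of all tested genes did (limma). At an unadjusted p under 0.05, 29 of the 109 were counted against 15.7% of all tested genes. Of these, 21 were higher and 8 lower with cetrorelix, against 7.18% and 8.55% of all tested genes. With median centring in place of loess the split was 14 higher and 15 lower, against 5.39% and 11.5% of all tested genes. Of the 109, 14 were above 0 on 6 of 6 arrays, against 4.01% of all tested genes, and 3 were below 0 on all 6, against 5.75%. The slides differed past the threshold for 17 of the 109, against 12.7% of all tested genes. With the pairing kept as a random replicate block over 6 arrays, 2 of the 109 passed at an adjusted p under 0.05, both higher, against 1.26% of all tested genes. Adding a dye coefficient to that block gave 7 against 3.85%, and 4 arrays with a dye coefficient, without a block and without the 2 arrays of negative fitted background, gave 11 against 5.06%. All 6 arrays with a dye coefficient and no block also gave 11, where 3.41% of all tested probes, a share of probes and not of genes, passed. This last fit counts the 2 arrays of a replicate as separate samples.

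Among 19 tested members of the HIF complex and its regulators, 3 reached an unadjusted p under 0.05. EGLN2, the remaining prolyl hydroxylase of the family, had a mean log2 ratio of 0.89 ± 0.71 (SD, n = 3; limma adjusted p = 0.202), with 1.86 and 1.53 on the arrays of replicate 2 and -0.10 on 1 array of replicate 3. CITED2, which competes with HIF1A for the coactivators CREBBP and EP300, was at -0.63 ± 0.78 (SD, n = 3; limma adjusted p = 0.404), and replicate 2 was again the farthest from 0. Its relative CITED4 was at 0.34 ± 0.08 (SD, n = 3; limma adjusted p = 0.413), above 0 on 6 of 6 arrays. HIF1AN, the asparaginyl hydroxylase that blocks coactivator binding, was at 0.06. VHL, ARNT2 and HIF3A were not among the tested genes.

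Of 39 other HIF target genes tested, 8 were higher and 2 lower at an unadjusted p under 0.05, with a list median of -0.02. BHLHE41, a transcriptional repressor, was above 0 on 6 of 6 arrays (0.69 ± 0.33, SD, n = 3; limma adjusted p = 0.170). MIF, a cytokine, was at 1.17 ± 0.98 (SD, n = 3; limma adjusted p = 0.185), from 0.12 to 2.56 over the arrays and highest in replicate 2. The transcription factor ZNF395 averaged 0.78 and differed between slides by -2.09 (limma adjusted p = 3.3e-13). The glycogen branching enzyme GBE1 (-0.52), the hormone STC1 (0.48) and the histone demethylase KDM4B (0.46) were the other 3 named by the rule.

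Of 16 tested genes of glycolysis and glucose uptake, 5 were higher and 1 lower at an unadjusted p under 0.05, with a list median of 0.15. The lactate exporter SLC16A3 had log2 ratios of 0.69, 0.91 and 0.79 with cetrorelix in Cy5 and 0.57, 2.16 and 1.40 with cetrorelix in Cy3, a mean of 1.09 ± 0.46 (SD, n = 3; limma adjusted p = 0.0856). The glucose carrier SLC2A1 was also above 0 on all 6 arrays on its brighter probe, at 0.86 ± 0.22 (SD, n = 3; limma adjusted p = 0.0877), while its other probe was at 0.04. PFKL, the liver phosphofructokinase, was at 0.81, and the hexokinases HK1 and HK2 at 0.61 and 0.35, with the other probe of HK1 at 0.33 and those of HK2 between -0.24 and 0.02. By contrast, lactate dehydrogenase LDHA was at -0.42, and -0.35 on its other probe, with a slide difference of 1.18 (limma adjusted p = 2.24e-04).

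The partners of single targets were read in the same way. Among 13 tested mitophagy and BCL2 partners of BNIP3, 3 were higher and 1 lower at an unadjusted p under 0.05. The autophagosome proteins GABARAPL1 (0.64) and MAP1LC3A (0.72) did not differ between slides past the threshold, and neither passed the adjusted test. The other probe of MAP1LC3A was at -0.02. GABARAP (0.78) differed between slides by -1.71, in the direction of BNIP3. The autophagy receptor OPTN was at -0.61, with a slide difference of 0.75 (limma adjusted p = 0.0397). Of 11 tested genes of the mTORC1 brake, 2 were lower, TBC1D7 (-0.54) of the TSC complex and TXNIP (-0.56). TXNIP differed between slides by -0.76 (limma adjusted p = 0.0354). Of 10 tested collagen hydroxylation and folding genes, 3 were higher, P4HA2 (0.42), CRTAP (0.46) and PLOD3 (0.45), and 1 was lower, PPIB (-0.58). The other probes of P4HA2 lay between 0.01 and 0.15. PAM, which amidates adrenomedullin and other peptides, was at 0.55 and was the single gene of its list of 4 at that level. In the NDRG family of 3, none was, and NDRG3 (-0.32) and NDRG2 (-0.16) had the lowest p.

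**Figure D4:**
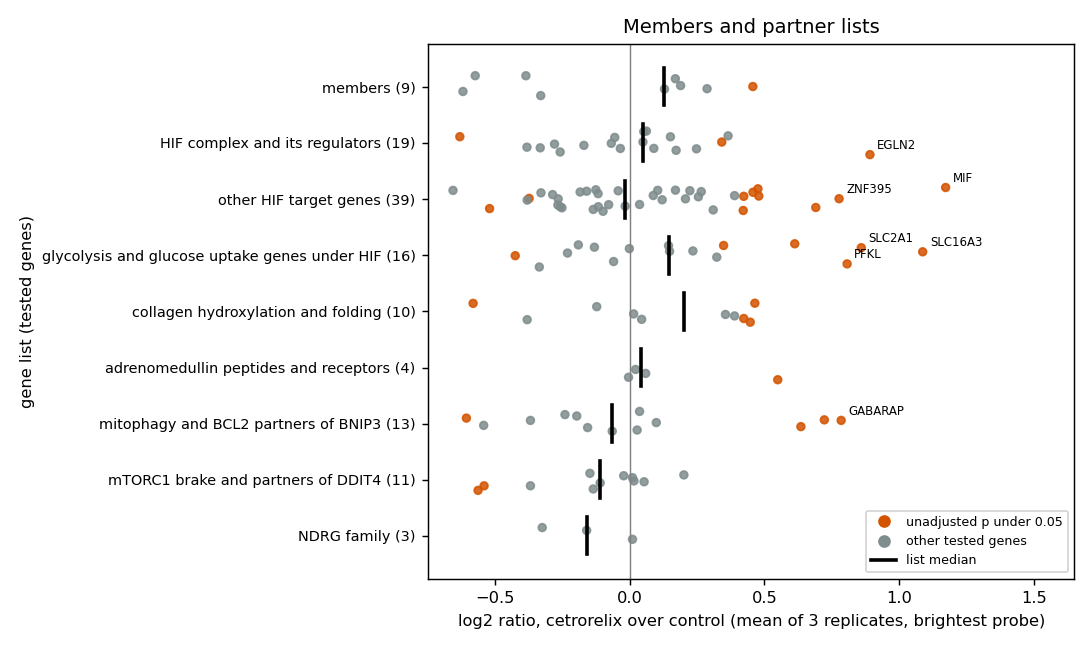
Mean log2 ratio of cetrorelix over control (x axis, 3 replicates, brightest probe of each gene) for the member genes and for 8 lists of partner genes (y axis, number of tested genes in brackets), with list medians as black bars. Orange points have an unadjusted p under 0.05; the points farthest to the right are MIF and SLC16A3.

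Values of granulosa cell markers in the same comparison are given here, and their part in the results above was not tested. Their summed intensity lay between 195652 and 262157 with cetrorelix and between 150848 and 236025 in control. GATA4 was at 1.07, INHA at 0.68, AMH at 1.43 and BMPR1B at -0.39, all at an unadjusted p under 0.05. Of 15 tested, 3 were thus higher and 1 lower, against 7.18% and 8.55% of all tested genes. None passed at an adjusted p under 0.05. INHA differed between slides by 0.74 (limma adjusted p = 0.0457), and AMH ran from 0.08 to 2.95 over the arrays. None of the 8 tested endothelial, 6 leukocyte, 5 erythrocyte or 5 oocyte marker genes reached an unadjusted p under 0.05. In the theca and stromal list 1 of 7 did, ACTA2 at 0.48, with a slide difference of -1.16 (limma adjusted p = 2.98e-04).

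Across the ways of processing, 12 alternatives could give a single probe a mean other than the one reported. HIF1A probes EMBV3_29664 and EMBV3_23828 had a mean below 0 under each of them, although that of EMBV3_23828 was only -0.02 from the Cy5 slide alone. Among 12 such alternatives each, BNIP3 was above 0 in 11 and DDIT4 below 0 in 11, the exception for both being the slide with cetrorelix in Cy5 alone. The authors' deposited log2 values gave -0.67 for HIF1A EMBV3_29664, 0.40 for BNIP3 and -0.64 for DDIT4 when fitted in the same way.

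**Figure D5:**
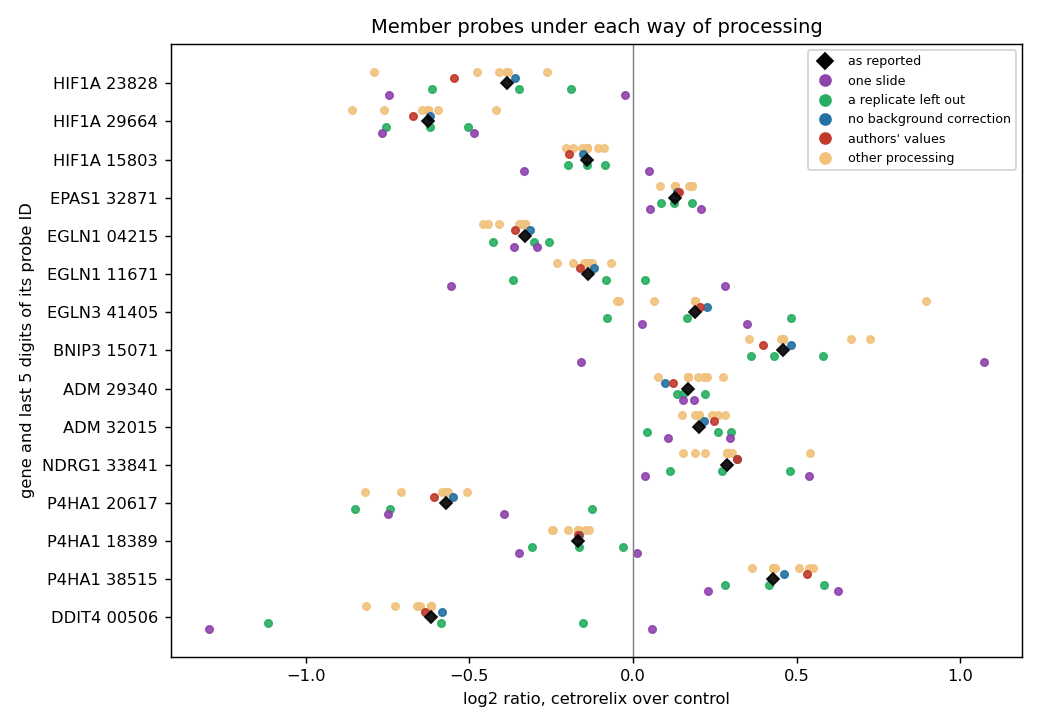
Mean log2 ratio of cetrorelix over control (x axis) of the 15 tested member probes (y axis) as reported (black diamonds) and under each alternative, coloured by kind. HIF1A EMBV3_29664 lies between -0.86 and -0.42 throughout, while BNIP3 runs from -0.16 to 1.07 and DDIT4 from -1.30 to 0.06 between the slides.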

How the data were processed

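The members and gene lists were chosen with earlier results of these data known. The deposited scanner tables hold the raw median spot intensity and local background intensity of both dyes, per the file headers. The authors also deposited normalized log2 ratios, both as Cy5 over Cy3 and as cetrorelix over control. These deposited versions matched each other after turning, with a largest gap of 5e-06. The authors' ratios of cetrorelix over control had column medians from -0.03 to 0.01. The submitters' processing notes name limma without settings, so how they were centred was not given in the sources used here. Here intensities were corrected with normexp (saddle-point estimator, offset 50) and loess (limma 3.58.1, R 4.3.3), leaving control spots out of the loess fit and without normalization between arrays. The fitted background means were negative on 2 arrays, where correlation with the authors' log2 values was 0.887 and 0.842, against 0.987 to 0.996 on the other 4. Without background correction it was 0.982 to 0.993 on all 6.

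Spots marked by the image analysis (36 to 94 per array) were set to missing. Probes above the 95th percentile of 153 negative controls on at least 3 arrays in either condition were kept (32358), and 32125 without a marked spot were tested with lmFit and eBayes on the 3 replicate averages against 0, two-sided, with Benjamini-Hochberg adjustment. An exact sign-flip test of 3 replicates cannot go below p = 0.25. Dye-swap arrays of a number are 1 replicate, per the series' design text, and their deviations from the slide means correlated at 0.23, 0.40 and 0.42. Their ratios themselves correlated at 0.08, 0.26 and -0.13, and the consensus correlation within a replicate was -0.026, or 0.253 with a dye coefficient. The slide test used the within-replicate difference (Cy5 minus Cy3 orientation). Its moderated standard error was the same, 0.263, for every tested member probe, so its p-values do not measure the spread of a single probe. Channel levels were set by loess and Aquantile. Arrays have no read depth, and their number limits the precision. The scripts were tested on simulated data.

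Symbols come from the platform annotation, updated through the ARS-UCD2.0 gene table: 20045 probes had a current symbol, 1524 matched a synonym, 221 kept theirs and 22004 had none. A gene was read from its brightest probe. Named partners are genes at an unadjusted p under 0.05 (at most 6 per list, lowest p first) or, where none, the 2 of lowest p. Likeness to the member of lowest p used the 3 nearest genes. No coordinates or sequences were used.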

Additional observations from a re-analysis of the deposited data

Results flagged for a closer look

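The difference between the 2 slides, cetrorelix in Cy5 minus cetrorelix in Cy3, passed the adjusted threshold for 3 member probes, and the slide cannot be told apart from the dye orientation. For BNIP3 the log2 ratio differed by -1.23 (limma adjusted p = 1.06e-04, lower on the Cy5 slide in 3 of 3 replicates). For DDIT4 it differed by 1.35 (limma adjusted p = 1.31e-05, higher on the Cy5 slide in 3 of 3 replicates), and with median centring in place of loess by 0.71 (limma adjusted p = 0.0577). For EGLN1 probe EMBV3_11671 it differed by -0.84 (limma adjusted p = 0.0172, lower on the Cy5 slide in 3 of 3 replicates), whereas the other EGLN1 probe, EMBV3_04215, differed by 0.07. Without replicate 3, the BNIP3 difference was -0.81 (limma adjusted p = 0.162), and that of EGLN1 EMBV3_11671 was -0.82 (limma adjusted p = 0.159). The latter was -0.73 without replicate 2 (limma adjusted p = 0.154).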

How the results depend on the processing

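No member probe passed at an adjusted p under 0.05, except 1 with no replicate block and a dye coefficient (HIF1A EMBV3_29664) and 2 on the Cy3 slide alone (BNIP3 and DDIT4). The fit with no block counts the 2 arrays of a replicate as separate samples. On 1 slide alone cetrorelix is always in the same dye, so treatment and dye effects cannot be told apart there. Member probes at an unadjusted p under 0.05 numbered 3, and 5 with offset 10, with no filter and with the authors' values, 6 with median centring, 5 on the Cy3 slide, 7 with a dye coefficient and no block, and 2 to 5 with a replicate left out. They numbered 6 with the replicate block and a dye coefficient and 6 on the 4 arrays of positive fitted background with a dye coefficient. These 2 settings and rma75 were chosen after seeing the data. Over all tested probes that level was reached by 11.1% as reported, 10.9% with offset 10, 9.48% with no filter and 12.9% with the authors' values. It was reached by 11.7% with median centring, 17% on the Cy3 slide and 15.2% with a dye coefficient and no block. The share was 7.54% to 14.9% with a replicate left out, 12.9% with block and dye coefficient and 15.1% on the 4 arrays. The member median was 0.13, and -0.33 where every array had to be above background. Partner genes called numbered 0, and 1 with offset 10, 2 with the replicate block, 7 with block and dye coefficient, 11 with a dye coefficient and no block, 11 on the 4 arrays with a dye coefficient, 3 and 9 on the Cy5 and Cy3 slides, and 0 to 9 with a replicate left out (9 without replicate 3). Those at an unadjusted p under 0.05 numbered 29, and 15 with scale normalization, 14 with rma75, and 17 to 35 with a replicate left out. Over all tested probes that level was reached by 11.1% as reported, 7.58% with scale normalization and 5.94% with rma75. The share ran from 7.54% to 14.9% with a replicate left out. Over all probes, 4 passed, 768 with block and dye coefficient, 1254 without replicate 3 and 0 without replicate 1. As shares of all tested probes, 0.0125% passed as reported, 0.766% with offset 10, 0.728% with the replicate block and 2.39% with block and dye coefficient. With a dye coefficient and no block 3.41% passed, and 3.38% on the 4 arrays. On the Cy5 and Cy3 slides 1.61% and 3.53% passed, and 0% to 3.9% with a replicate left out.

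EGLN3 was at 0.89 with scale normalization and reversed to -0.043 with rma75, -0.049 on the 4 arrays with a dye coefficient and -0.080 without replicate 1 (-0.080 to 0.48 over replicates). On the Cy5 slide BNIP3 was at -0.16, P4HA1 EMBV3_18389 at 0.011 and DDIT4 at 0.059, and on the Cy3 slide HIF1A EMBV3_15803 was at 0.049 and EGLN1 EMBV3_11671 at 0.28. EGLN1 EMBV3_11671 was at 0.036 without replicate 2 (-0.37 to 0.036 over replicates). Slide differences past the threshold numbered 3, and 5 with median centring (all below 0, without DDIT4) and 1 to 4 with a replicate left out (1 without replicate 3). The share over all tested probes was 11.9% as reported. It is not given here for the other settings, so their counts cannot be read as a result about the members. With median centring those of EGLN1 EMBV3_04215, NDRG1 and P4HA1 EMBV3_20617 reversed to -0.57, -0.10 and -0.30. With a replicate left out, those of P4HA1 EMBV3_18389 ran from -0.11 to 0.89, P4HA1 EMBV3_38515 from -0.023 to 0.78, EGLN1 EMBV3_04215 from -0.27 to 0.30, and ADM EMBV3_29340 and EMBV3_32015 from -0.22 to 0.26 and -0.42 to 0.18. The cause of these moves was not tested.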
